A study of Drosophila melanogaster with 6 samples.

Results

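Ecdysteroid kinase-like genes form a large family in *Drosophila melanogaster*. The set described here held 40 of its genes, taken from a list of symbols and CG identifiers. The list was drawn up with earlier results of these data known. It left out CG11893 and the relatives grouped with it, which serve below for comparison. Of the 40 genes, 36 were measured by a probe set that the array's annotation pairs with a single gene, out of 11982 genes measured in that way. CG33301, CG33509 and CG33511 had no probe set in the annotation used, and CG31975 was represented only on probe sets shared with ovm. METH-treated samples were virgin w1118 males, 5 days old, that fed for 24 h on food with 0.6% (w/v) METH (methamphetamine, a psychostimulant). Control samples were males of the same strain and age that fed for 24 h on food without the drug, and the labels describe both diets as blue. Each sample pooled 20 whole flies, there were 3 biological replicates per diet, and each sample was hybridized to 1 Affymetrix *Drosophila* Genome 2.0 array.

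Ecdysteroids are the molting and reproductive steroid hormones of insects. In the silkworm *Bombyx mori* an ecdysteroid kinase adds a phosphate to these hormones, which stores them in an inactive form, and a phosphatase can release them again. The fly proteins are grouped with that enzyme by sequence and share a fold with choline kinases. A role in the detoxification of foreign compounds by phosphorylation has been proposed for the family, and most of its members have only a CG number and no assigned substrate.

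Values are given as the probe set's signal in percent of the signal of the actin probe set AFFX-Dros-ACTIN_M_r on the same array, the reference named in the study's methods. Differences are log2 fold changes, METH minus control, with their standard error (SE). They were tested with limma across 18769 probe sets, with p adjusted by the Benjamini-Hochberg method. A gene was called at an adjusted p under 0.05. Where a gene had more than 1 probe set, the one with the highest mean signal was used. Signals of different probe sets do not rank transcripts, so levels are compared only between diets.

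The median signal was 51.7 to 66.1 on METH arrays and 61.0 to 70.3 on control arrays. Spearman's rank correlation of 2 arrays was 0.968 to 0.975 for replicates of 1 diet and 0.966 to 0.972 across diets. The actin reference itself had a signal of 700 to 868 on METH arrays and 922 to 1218 on control arrays, so that dividing by it placed the median probe set at a log2 fold change of 0.24. Across all probe sets 66.9% of the calls were upward with this scaling. The share was 23.0% with the signals as deposited, 43.7% with median centring, 41.1% with 75th percentile centring and 37.9% with quantile normalization. Precision is limited by the 6 arrays, and an exact permutation test on 3 samples per diet has 0.1 as its smallest p.

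The members of the set that passed the test were all higher in METH-treated flies, led by CG6908, CG16898 and CG31288. Of the 36 measured genes, 10 rose and 0 fell at an adjusted p under 0.05 in limma. Over all probe sets tested 0.842% were called higher and 0.416% lower, and with 1 probe set per gene 1.14% and 0.618%. Because the set was chosen with earlier results of these data known, these counts only describe it. The relatives called lower, CG10514 and CG11892, were in the comparison group. At an unadjusted p under 0.05 there were 20 higher and 0 lower members (all probe sets, 9.38% and 2.12%). A t statistic joined to a fold threshold of 1.5 is also described in the study, with a p threshold of 0.005 in its methods and 0.008 in its results. At 0.005 the methods' t-test called 7 higher and 0 lower (all probe sets, 0.922% and 0.256%), and at 0.008 it called 8 and 0 (all probe sets, 1.25% and 0.33%). At 0.008 it did not call CG31104, CG6834 and CG31087, which limma called. It did call CG10550, which limma did not. On the actin scale the METH and control values did not overlap for 18 members, each of them with METH above control (all probe sets, 15.7% above and 2.58% below). In the signals as deposited the diets overlapped for some of these, namely CG6834, CG9498, CG32195, CG5126, CG31102 and CG31098. The share of all probe sets was not counted for the deposited signals. The median log2 fold change of the 36 genes was 0.59, which is 0.34 above the median probe set. There were 34 positive differences and 2 negative ones. With the signals as deposited 25 were positive and 11 negative, and under the other 3 scalings 29 were positive and 7 negative. On the actin scale 29 members were above the median of all probe sets and 7 below it. The share of positive differences over all probe sets was not counted. RNA was taken from whole flies, so a higher level from more cells of a type and one from more RNA per cell cannot be told apart, nor can fewer cells and less RNA per cell.

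**Figure D1:**
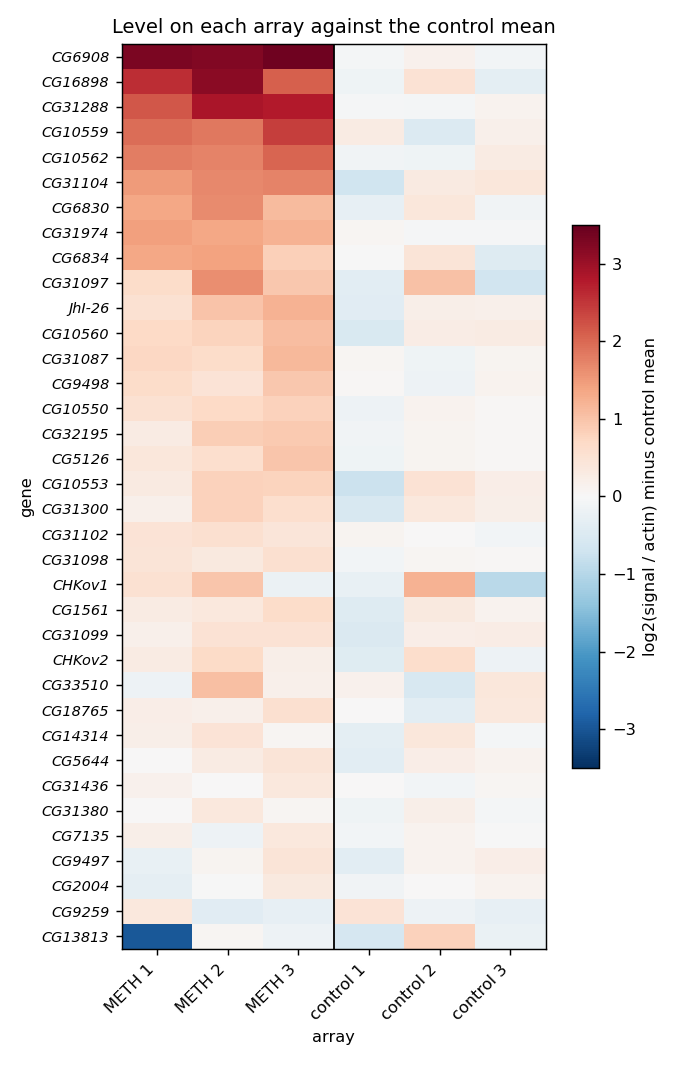
Log2 level of each of the 36 genes (rows, ordered by log2 fold change) relative to actin on every array (columns), minus the mean of the 3 control arrays. Red marks values above the control mean and blue values below it. The rows of the called genes are red in all METH columns, and CHKov1 and CG13813 vary as much between arrays of 1 diet as between diets.

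The single arrays showed the same direction. The median of the 36 genes stood 0.42, 0.68 and 0.71 above the control mean (log2) on METH arrays 1, 2 and 3, while the median of all probe sets stood 0.11, 0.26 and 0.37 above it. On these arrays 32, 33 and 33 of the 36 genes were above their control mean. On control arrays 1, 2 and 3 it was 9, 26 and 22. The share of all probe sets above their control mean was not counted on single arrays.

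The largest change was that of CG6908. It had 246, 238 and 266% of actin in METH-treated flies, against 24.0, 28.2 and 23.8% in control flies. Even the lowest METH value was 8.44 times the highest control value on the actin scale. The means were 250 ± 14.1% in METH-treated flies and 25.3 ± 2.48% in control flies (SD, n = 3 each; log2 fold change 3.31, SE 0.15, adjusted p = 4.78e-08 in limma), a 9.89-fold difference. It ranked 16 of all probe sets tested by log2 fold change. With the signals as deposited its log2 fold change was smaller, 2.93. CG6908 was called under every alternative setting tried, and it was the only one of the 36 genes that passed the methods' t-test after Benjamini-Hochberg adjustment. The study also designed qRT-PCR primers for it, which are shown because they are the sequences by which the transcript of largest change in the set can be followed. The primer pair (L and R, as the study names its sides), written 5′ to 3′, is for a gene of arm 3R. The qRT-PCR values were not used here.
CG6908 primer L: atcgagggagaattccgagt
CG6908 primer R: gcgaagagaaccgactcatt

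CG6908 lies in a row of 4 members on 3R, with no other protein-coding gene between them in the RefSeq annotation. In that row CG6830, CG6834 and CG6908 were higher and CG18765 was not called. CG6830 had 148, 181 and 124% of actin in METH-treated flies, against 46.8, 75.9 and 53.2% in control flies (log2 fold change 1.38, SE 0.21, adjusted p = 0.00251 in limma). Its values on both diets were highest in replicate 2, and the diets did not overlap. CG6834 had 34.0, 34.9 and 23.3% in METH-treated flies, against 13.0, 18.1 and 9.73% in control flies (log2 fold change 1.20, SE 0.24, adjusted p = 0.0233 in limma). The call of CG6834 was among the weaker ones. It was lost with the signals as deposited, with 75th percentile centring and with quantile normalization, and without METH replicate 1, METH replicate 2 or control replicate 3. CG18765 had 1.63, 1.56 and 2.04% in METH-treated flies, against 1.39, 1.07 and 1.79% in control flies (log2 fold change 0.32, 95% confidence interval -0.62 to 1.25). At signals of 13.5 to 14.3 on METH arrays and 9.87 to 17.7 on control arrays it was dim. No difference was detected, and a small one could not be at this level.

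**Figure D2:**
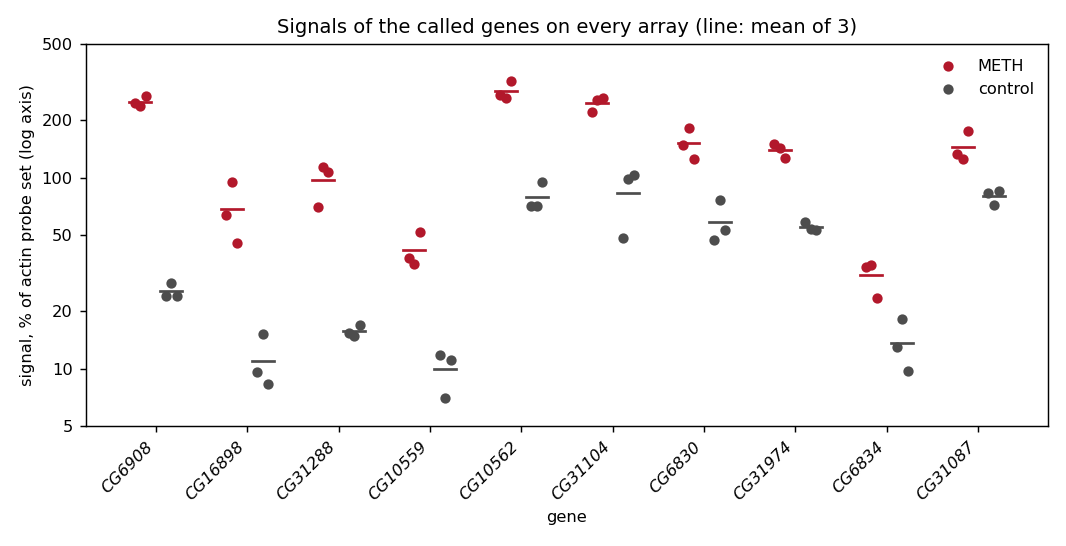
Signal in percent of the actin probe set (log axis) of the 10 genes called higher. Each point is 1 array, METH in red on the left and control in grey on the right, and each line is the mean of 3 arrays. No METH point of a gene lies at or below a control point of the same gene.

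The 2 other rises of more than 6-fold on the actin scale were those of CG16898 and CG31288. With the signals as deposited their log2 fold changes were smaller, 2.24 and 2.22. CG16898, which stands alone on arm 2R, had 63.7, 95.1 and 45.6% of actin in METH-treated flies, against 9.54, 15.1 and 8.34% in control flies (log2 fold change 2.61, SE 0.27, adjusted p = 1.21e-04 in limma). Replicates of CG16898 differed widely within a diet, with a coefficient of variation of 36.8% in METH-treated and 33.0% in control flies, but the lowest METH value was 3.01 times the highest control value. CG31288 had 70.4, 113 and 107% in METH-treated flies, against 15.3, 14.8 and 16.9% in control flies (log2 fold change 2.60, SE 0.19, adjusted p = 4.66e-06 in limma). The spread of CG31288 was mostly on the METH side (coefficient of variation 23.9%, against 6.98% in control flies).

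CG31288 belongs to an uninterrupted run of 26 genes of the family on 3R, of which 16 are members of the set. With it CG31104, CG31087, CG10559 and CG10562 were called higher, 5 of the 16. Of the 20 members measured elsewhere 5 were called as well, and the difference between these counts was not tested. The median log2 fold change was 0.66 for the members in the run and 0.39 for those elsewhere. Among 11 members that stand alone, 1 was called higher (CG16898), with a median of 0.25. Neighbours can share sequence, and the cross-hybridization of their probe sets was not tested.

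CG10562 and CG10559 stand near the end of the run that CHKov1 and CHKov2 close. CG10562 had 269, 262 and 321% of actin in METH-treated flies, against 71.2, 70.9 and 94.8% in control flies (log2 fold change 1.85, SE 0.18, adjusted p = 6.73e-05 in limma). CG10559 had 37.8, 35.3 and 52.0% in METH-treated flies, against 11.8, 7.01 and 11.1% in control flies (log2 fold change 2.08, SE 0.23, adjusted p = 1.87e-04 in limma). Both were highest on METH array 3 on the actin scale, and neither had overlapping diets. The deposited signals of CG10562 were nearly level on METH arrays 1, 2 and 3 (2235, 2274 and 2245). CG10553 and CG10560, which lie between them, did not pass the threshold. CG10560 had 144, 152 and 185% in METH-treated flies, against 60.4, 106 and 107% in control flies (log2 fold change 0.85, SE 0.22, adjusted p = 0.112 in limma). Its diets did not overlap, and control replicate 1 was low. CG10553 had 148, 209 and 205% in METH-treated flies, against 71.0, 167 and 140% in control flies (log2 fold change 0.64, SE 0.27, adjusted p = 0.424 in limma), and its diets overlapped.

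CG31104 had 221, 255 and 261% of actin in METH-treated flies, against 48.5, 97.8 and 103% in control flies (log2 fold change 1.64, SE 0.25, adjusted p = 0.00307 in limma). Control replicate 1 was well below the other two, and the lowest METH value was 2.14 times the highest control value. CG31087 had 132, 124 and 175% in METH-treated flies, against 83.2, 71.5 and 84.8% in control flies (log2 fold change 0.84, SE 0.18, adjusted p = 0.0324 in limma). Of the called members CG31087 changed least, 0.60 above the median probe set on the log2 scale. It passed under none of the 4 other scalings, in none of the 6 fits that left out 1 array (log2 fold changes 0.69 to 0.94) and not without the trend (adjusted p = 0.349 in limma), and the cause was not tested.

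**Figure D3:**
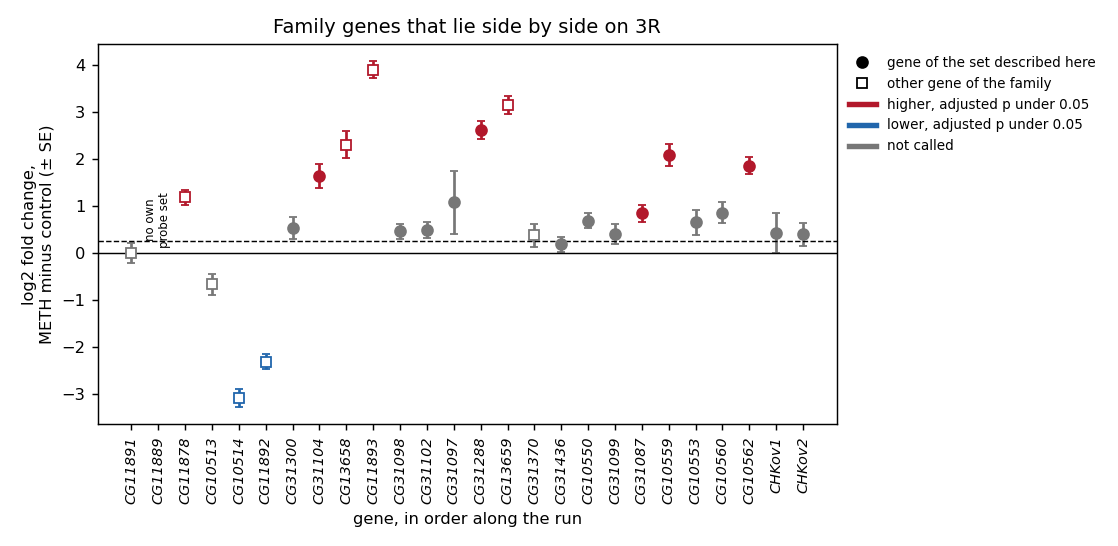
Log2 fold change, METH minus control (± SE), of 25 of the 26 family genes that lie side by side on 3R, in their order along the run. Filled circles are members of the set and open squares the other genes of the family. Red marks genes called higher, blue genes called lower, and the dashed line the median of all probe sets. The blue squares lie next to each other, and no circle is blue.

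CG31974 was the called member of arm 2L. It had 149, 142 and 127% of actin in METH-treated flies, against 58.4, 54.1 and 53.3% in control flies (log2 fold change 1.33, SE 0.15, adjusted p = 2.6e-04 in limma). Its values were among the tightest, with coefficients of variation of 7.96% in METH-treated and 4.99% in control flies. Its neighbour is CG31975, separated from it by 1 gene. CG31975 cannot be told apart from ovm on 2 shared probe sets, which gave different results. One had 13.3, 17.9 and 19.4% in METH-treated flies, against 6.60, 5.13 and 4.37% in control flies (log2 fold change 1.65, SE 0.24, adjusted p = 0.00196 in limma), with no overlap. The other was dim, at 1.66, 1.10 and 1.18% in METH-treated flies, against 1.28, 1.38 and 1.92% in control flies (log2 fold change -0.21, SE 0.45, adjusted p = 0.836 in limma). Neither probe set entered the counts above.

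JhI-26, named for its induction by juvenile hormone, was the gene nearest to the threshold without passing it. It had 106, 145 and 169% of actin in METH-treated flies, against 56.0, 84.2 and 82.8% in control flies (log2 fold change 0.91, SE 0.21, adjusted p = 0.0629 in limma). Replicate 1 was lowest on both diets, and every METH value was above every control value. CG10550 followed with 91.8, 103 and 111% in METH-treated flies, against 56.0, 69.3 and 65.4% in control flies (log2 fold change 0.68, SE 0.16, adjusted p = 0.0679 in limma). JhI-26 and CG10550 passed the threshold with 75th percentile centring and with quantile normalization. JhI-26 also passed when dim probe sets were left out (adjusted p = 0.0279 in limma) and without METH replicate 1 (adjusted p = 0.0304 in limma), but in no other fit that left out an array. CG31087 and CG6834 were the called genes nearest to the threshold, and both were lost there.

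CHKov1 is known for an allele with a transposon insertion that has been linked to resistance to organophosphates and to the sigma virus. It had 55.9, 75.7 and 33.9% of actin in METH-treated flies, against 32.3, 90.7 and 20.2% in control flies (log2 fold change 0.43, SE 0.43, adjusted p = 0.642 in limma). The 95% confidence interval ran from -0.49 to 1.35, and the coefficient of variation in control flies was 79.0%, the highest of the 36 genes. Replicate 2 was the highest on both diets. The second probe set of CHKov1 had 14.0, 16.2 and 15.8% in METH-treated flies, against 12.03, 15.3 and 8.71% in control flies (log2 fold change 0.39, SE 0.22, adjusted p = 0.464 in limma). CHKov2, its neighbour in the genome, had 17.8, 23.3 and 17.1% in METH-treated flies, against 11.02, 22.3 and 12.8% in control flies (log2 fold change 0.39, SE 0.25, adjusted p = 0.492 in limma). Neither gene was called, and the values of both diets overlapped at all 3 probe sets.

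The same replicate often led on both diets. For 11 of the 36 genes replicate 2 had the highest value on METH and on control food, for 10 replicate 3 and for 2 replicate 1. Over all probe sets the shares were 20.2%, 19.5% and 3.35%. These ranks are on the actin scale and depend on the reference. Its signal was lowest on METH array 3 (700) and control array 2 (922), and highest on control array 1 (1218). The ranks were not counted in the signals as deposited. The part of replicate in these results was not tested beyond the fits given under the alternatives.

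CG1561 and CG2004 of the X chromosome were not called. CG1561, listed as pkm in RefSeq, had 92.4, 97.7 and 119% of actin in METH-treated flies, against 56.0, 96.1 and 82.3% in control flies (log2 fold change 0.42, SE 0.20, adjusted p = 0.442 in limma). CG2004 had 123, 154 and 196% in METH-treated flies, against 141, 155 and 168% in control flies (log2 fold change 0.01, 95% confidence interval -0.41 to 0.42). CG2004 and CG9498 are, with CG10562, the members with the brightest probe sets. CG9498 of arm 2L had 275, 244 and 339% in METH-treated flies, against 182, 154 and 193% in control flies (log2 fold change 0.69, SE 0.19, adjusted p = 0.14 in limma). Its diets did not overlap on the actin scale but did in the signals as deposited. The diets of the adjacent CG9497 overlapped. CG9497 had 75.03, 94.8 and 122% in METH-treated flies, against 69.6, 97.1 and 106% in control flies (log2 fold change 0.09, 95% confidence interval -0.36 to 0.55).

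**Figure D4:**
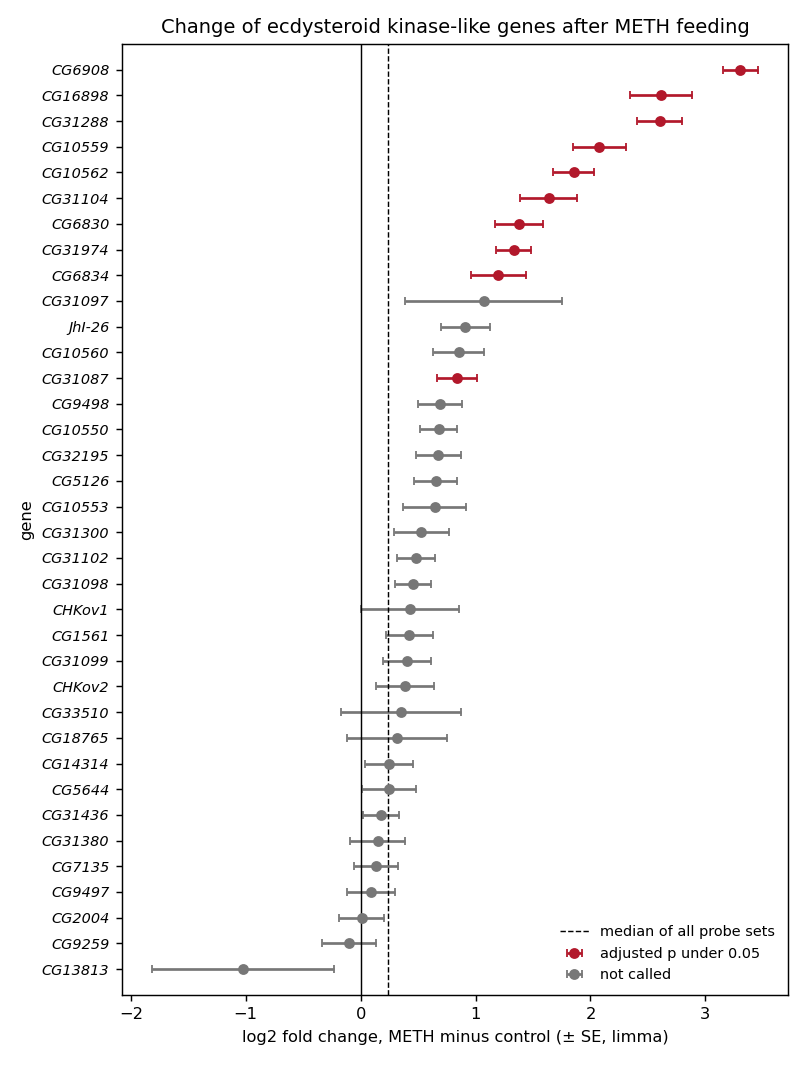
Log2 fold change, METH minus control, of the 36 measured genes with the SE from limma, ordered by size. Red points passed an adjusted p of 0.05, grey points did not, and the dashed line is the median of all probe sets at 0.24. Points with long bars at CG31097, CG13813 and CG33510 belong to dim probe sets, and CHKov1 has a long bar at a bright one.

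Of the other members without a call, CG32195, CG5126, CG31102 and CG31098 had no overlap between diets on the actin scale, with log2 fold changes of 0.68, 0.65, 0.48 and 0.46. Their deposited signals overlapped. CG31300, CG31099, CG14314, CG5644, CG31436, CG31380 and CG7135 had overlapping diets and log2 fold changes between 0.13 (CG7135) and 0.53 (CG31300). The sign of the last 4 of these 7 and of CG14314 turned with the signals as deposited. CG9259 had 68.3, 40.5 and 43.7% of actin in METH-treated flies, against 73.4, 46.6 and 43.4% in control flies (log2 fold change -0.10, 95% confidence interval -0.61 to 0.41). It was 1 of only 2 genes with a negative difference, and replicate 1 was highest on both diets.

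Calls were found among the brighter probe sets. The 31 members above the median level of all probe sets included all 10 called ones, and none of the 5 below it was called. Among all probe sets above the median level 1.60% were called higher, and among those below it 0.0853%. CG13813, the other gene with a negative difference, had 0.139, 1.15 and 0.954% of actin in METH-treated flies, against 0.729, 1.88 and 0.933% in control flies (log2 fold change -1.02, 95% confidence interval -2.73 to 0.68). Its signals were 1.15 to 9.97 on METH arrays and 8.88 to 17.4 on control arrays, where the 20th percentile of an array was between 4.51 and 5.96. Without METH replicate 1 the log2 fold change was -0.053 (adjusted p = 0.97 in limma). CG31097 had 0.584, 1.15 and 0.722% in METH-treated flies, against 0.290, 0.766 and 0.235% in control flies (log2 fold change 1.07, 95% confidence interval -0.40 to 2.54). CG33510 had 0.936, 2.16 and 1.19% in METH-treated flies, against 1.17, 0.718 and 1.37% in control flies (log2 fold change 0.35, 95% confidence interval -0.77 to 1.47). No change was detected in these 3 genes, and a small one could not be at such signals.

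The set differed in its counts from the relatives grouped with CG11893, but both groups were chosen with earlier results of these data known. The difference between the groups of genes was not tested. Of 11 relatives 10 were measured, and 4 of these were higher and 2 lower. CG11893, CG13659 and CG13658 had log2 fold changes of 3.90, 3.15 and 2.30, and CG10514 and CG11892 of -3.09 and -2.32. The relatives called lower, CG10514 and CG11892, are adjacent in the run on 3R, and the next gene, the member CG31300, had 34.9, 53.5 and 45.7% of actin in METH-treated flies, against 20.6, 39.3 and 35.1% in control flies (log2 fold change 0.53, SE 0.24, adjusted p = 0.432 in limma).

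Genes of ecdysteroid synthesis, breakdown and response were not called. Of 20 listed genes 17 were measured, with 0 called in either direction by limma. Before adjustment 1 of the 17 had p under 0.05 upward and 0 downward. Their median log2 fold change was 0.23, beside 0.24 for all probe sets, and 12 of the 17 were below the median level. The synthesis genes spo and sad had signals of 0.44 to 3.26 and 1.36 to 2.62, below the 20th percentile of every array (4.51 to 5.96). Those of dib and sro began at 1.11 and 1.51. No change was detected in these genes, and a small one could not be at such signals. MsrA, the methionine sulfoxide reductase known as the ecdysone-induced Eip71CD, was the nearest to a call (log2 fold change 1.03, adjusted p = 0.0825 in limma). Epp (CG13604), named as an ecdysteroid-phosphate phosphatase, had a log2 fold change of 0.46, and Cyp18a1, a hydroxylase that inactivates ecdysteroids, one of 0.23. On the actin scale the diets did not overlap for 3 of the 17, MsrA, Epp and nvd, each with METH above control (all probe sets, 15.7%). Of 5 regulators of xenobiotic responses, Keap1, which holds back the transcription factor CncC, was higher (log2 fold change 1.08, adjusted p = 0.029 in limma), and cnc, maf-S, Hr96 and tgo were not called.

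Markers of some tissues moved between the diets too. Of 10 measured midgut markers 5 were lower and 0 higher, among them the digestive proteases Jon25Bii (log2 fold change -3.25) and Jon25Bi (-2.98). The summed level of the 10 was 1638 to 2118% of actin in METH-treated flies and 1842 to 2681% in control flies. Most of that sum came from alphaTry (means 1106% and 1009%) and Jon65Aiii (567% and 705%), which were not called. Of 7 fat body markers 1 was lower, the lipid droplet protein gene Plin1 (-1.19), with sums of 1063 to 1120% in METH-treated flies and 1001 to 1345% in control flies. Of 4 accessory gland markers 1 was lower, the seminal protein gene Acp26Aa (-1.55), with sums of 1121 to 1612% in METH-treated flies and 1226 to 1792% in control flies. Markers of Malpighian tubule (4 measured), testis (6), muscle (3) and eye (2) had 0 calls. Testis markers summed to 1363 to 1560% in METH-treated flies and 898 to 1351% in control flies, without overlap on the actin scale. Most of that sum came from Mst87F and Mst98Ca, whose deposited signals overlapped. Mst87F had 4631 to 5462 on METH and 4455 to 5007 on control arrays, and Mst98Ca 4571 to 5506 and 4868 to 5651. Eye markers summed to 1594 to 2056% in METH-treated flies and 1168 to 1648% in control flies. Tubule markers summed to 421 to 547% in METH-treated flies and 336 to 446% in control flies. Muscle markers summed to 588 to 739% in METH-treated flies and 681 to 802% in control flies. Female markers (4 measured) had 0 calls, and Yp1, Yp2 and Vm26Aa were near the dimmest signals in these males. Their list summed to 12.9 to 14.9% in METH-treated flies and 9.52 to 12.1% in control flies, mostly from Yp3. These sums did not overlap on the actin scale. The part of these tissues in the changes above was not tested.

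The calls depend on how the spread is modelled. When limma's spread was not allowed to follow the signal level, 2 members were called, CG31288 and CG6908, against 17 higher and 7 lower of all probe sets. Of the 10 called members 8 passed under the 4 other scalings and in each fit that left out 1 array, the exceptions being CG6834 and CG31087.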

How the data were processed

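The deposited values are intensities on a linear scale, which the authors obtained from the array images with GCOS 1.4. Whether GCOS scaled the arrays to a shared target is not given in the sources used here. From the log2 of each signal the log2 of AFFX-Dros-ACTIN_M_r on that array was subtracted, after the methods of the study. Their SAM test was not run, because it splits the samples anew. Of 18952 probe sets, 183 AFFX probe sets were left out. Of the 18769 tested, 13646 are paired with 1 gene, 402 with several and 4721 with none. lmFit and eBayes of limma 3.58.1 (R 4.3.3), with the prior variance following the mean level, gave a two-sided p for each. Genes were named from the platform annotation, updated through RefSeq, which also gave the order of neighbouring genes. No detection calls were used.

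The members and the lists compared with them were chosen with earlier results of these data known. Members given with the value on every array were those called, those nearest to the threshold, JhI-26, CHKov1, CHKov2, CG13813, CG1561 and those with the brightest probe sets. CG10553, CG10560, CG18765, CG31097, CG31300, CG33510, CG9259 and CG9497 were added after their values were seen. Other genes were named by smallest p in each list, except Cyp18a1 and Epp, also added afterwards. Whether replicate numbers pair the samples is not given in the sources used here. Deviations of same-numbered arrays correlated at 0.02 to 0.06, and 5 of 6 arrays correlated best with their own number. Those of differently numbered arrays correlated at -0.078 to 0.039, so the ranges overlapped and the pairing was not settled. The main fit did not pair them. Alternatives were 4 other scalings, a filter below the 40th percentile of mean signal, limma without the trend, floors at the 20th percentile, the methods' t-test (at 0.008, and at 0.005 as added after seeing the data), the replicate block, leaving out each array, other probe sets, and leaving out probe sets with an s, x or a suffix. Figures were made in matplotlib 3.10.9 under Python 3.11.15.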

Additional observations from a re-analysis of the deposited data

Results flagged for a closer look

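A signal appeared outside the counts, on a probe set that CG31975 shares with ovm. Its log2 fold change was 1.65 (SE 0.24), with 13.3 to 19.4% of actin in METH-treated flies and 4.37 to 6.60% in control flies (n = 3 each). The other probe set shared by the same genes was dim and was not called (log2 fold change -0.21, adjusted p = 0.836 in limma). Which of the genes they measured cannot be told apart.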

How the results depend on the processing

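No member was called lower under any setting, and none of the 10 called members changed sign. The count of 10 called higher stayed at 8 to 12 under the other scalings, the filter on dim probe sets, a floor set on each array, the other probe sets and the leave-one-out fits (8 to 9). It was 2 without the trend, 1 with the methods' t-test after Benjamini-Hochberg adjustment (CG6908) and 4 with 1 floor set after scaling (CG10562, CG31288, CG31974 and CG6908), an alternative chosen after seeing the data. At the thresholds of the methods' t-test it was 7 or 8. With the replicate block it was 20, JhI-26 and CG10550 among them, beside 1033 higher and 260 lower of all probe sets. Whether the numbers pair the samples is not known, and 5 of 6 arrays correlated best with their own number. Over all probe sets the calls were 158 higher and 78 lower with actin scaling, 114 and 381 as deposited, 131 and 169 with median centring, 147 and 211 with 75th percentile centring, 161 and 264 with quantile normalization and 51 and 14 with the added floor. The median of the 36 genes was 0.21 as deposited, 0.40 with median centring, 0.36 with 75th percentile centring and 0.34 with quantile normalization, beside -0.13, 0.05, 0.02 and 0.02 for all probe sets. It was 0.48 to 0.71 in the leave-one-out fits. Signs turned 31 times, in 11 members without a call. As deposited the log2 fold changes were -0.13 (CG14314), -0.060 (CG18765), -0.37 (CG2004), -0.23 (CG31380), -0.20 (CG31436), -0.025 (CG33510), -0.13 (CG5644), -0.24 (CG7135) and -0.28 (CG9497). With median centring, 75th percentile centring and quantile normalization, in this order, they were -0.18, -0.22 and -0.24 for CG2004, -0.043, -0.079 and -0.037 for CG31380, -0.014, -0.050 and -0.058 for CG31436, -0.057, -0.093 and -0.082 for CG7135, and -0.098, -0.13 and -0.16 for CG9497. Leave-one-out values ranged from -0.16 to 0.17 (CG2004), -0.33 to 0.13 (CG9259), -0.089 to 0.26 (CG9497) and -0.049 to 1.04 (CHKov1). The cause of these turns, beyond the shift that each scaling gives to all probe sets, was not tested. Signals near the 20th percentile of the arrays limit what CG13813, CG31097 and CG33510 can show.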
